A study of Mus musculus with 6 samples.

Results

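Heat shock proteins and their co-chaperones were taken from a table of genes measured in mouse hearts with and without a deletion of the splicing factor SRSF4. The group holds every protein-coding gene whose symbol begins as an Hsp70 or Hsp110 (Hspa, Hsph1), a small heat shock protein (Hspb with a number), the mitochondrial chaperonin (Hspd1, Hspe1), an Hsp90, a J protein (Dnaj), a BAG protein, a heat shock factor (Hsf) or a numbered subunit of the cytosolic chaperonin (Cct2 to Cct8). This gave 79 of 12824 genes. RNA came from whole hearts of adult C57BL/6 mice aged 2 months. In 3 KO hearts both Srsf4 alleles were floxed and Cre was driven by NKx2.5 (SRSF4flox/flox;NKx2.5-Cre). The 3 control hearts carried the same floxed alleles and no Cre (SRSF4flox/flox), each heart being a separate animal per the series design. NKx2.5 marks the cardiac lineage, so other cells of the whole heart can keep an intact Srsf4. No group with Cre and without floxed alleles was analysed here, so the presence of Cre and the loss of Srsf4 cannot be told apart.

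Molecular chaperones bind unfolded or partly folded proteins and help them to fold, to assemble or to be degraded. Hsp70 proteins bind and release their clients in an ATP cycle that J proteins start and that nucleotide exchange factors, among them Hsp110 and BAG proteins, complete. Hsp90 acts on later folding steps of kinases and receptors, small heat shock proteins hold unfolded proteins without ATP, and the chaperonins enclose a single protein in a chamber. In heart muscle these proteins attend to the sarcomere, the desmin network and the mitochondria. The transcription factor HSF1 raises a subset of them under heat or proteotoxic stress, and a separate pathway raises the chaperones of the endoplasmic reticulum (ER).

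Srsf4, the deleted gene (ENSMUSG00000028911), had 10.8, 10.1 and 8.39 CPM in KO hearts 1 to 3 and 22.1, 23.5 and 23.7 CPM in control hearts 1 to 3. CPM are counts per 1000000 counts of a library whose size is adjusted by trimmed-mean (TMM) factors. The count covers the whole gene and not the deleted part alone. The groups did not overlap and the libraries followed their labels (log2 fold change -1.24, SE 0.11, edgeR adjusted p = 0.000881). Nkx2-5, the gene of the Cre driver, was also called lower. It averaged 19.7 ± 1.13 CPM in KO hearts and 38.1 ± 1.75 CPM in control hearts (SD, n = 3 each), without overlap. Its log2 fold change was -0.95 (SE 0.08, edgeR adjusted p = 0.000652). The lower level of Nkx2-5 and the loss of Srsf4 cannot be told apart here. The estimated counts summed to 66927244 to 73344126 in KO libraries and 59810975 to 74941323 in control libraries. Of 12686 genes that passed a filter on low counts, 765 were called at an adjusted p under 0.05 by edgeR's quasi-likelihood test (6.03%), 417 higher (3.29%) and 348 lower (2.74%) in KO hearts. The second principal component (17.4% of the variance) held KO 1 at 34.7, far from KO 2 (-17.5) and KO 3 (-13.2), and leaving KO 1 out raised the number of genes called to 2896. Every KO library has 1 code prefix and every control library another, so a batch that follows the prefix and the genotype cannot be told apart. The 8 cardiomyocyte markers (Myh6, Tnnt2, Tnni3, Actc1, Ryr2, Pln, Mb and Myl2) summed to 59470 to 66922 CPM in KO hearts and 62338 to 64060 CPM in control hearts. None of the 8 was called or had an unadjusted p under 0.05 with edgeR, and DESeq2 and limma-trend called none. Limma voom with sample quality weights, which called 3538 genes in all, called 1 of the 8 higher and 3 lower.

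All 79 chaperone genes passed the filter. Of these, 7 were called higher in KO hearts (Hsph1, Hsp90aa1, Hspb1, Dnajc11, Dnajb6, Dnajc10 and Bag2), 1 was called lower (Hspa8) and 71 were not called. That is 8.86% higher and 1.27% lower, against 3.29% and 2.74% of all genes tested. The share of the 79 called in either direction, 10.1% against 6.03% of all genes, moved with single libraries. It was 1.27% against 2.27% of all genes without control 1, 2.53% against 2.36% without control 2, 2.53% against 2.5% without control 3, 3.8% against 3.36% without KO 3, 5.06% against 3.87% without KO 2 and 27.8% against 22.8% without KO 1. All KO values lay above all control values in 21 of them and below in 8, where 13.7% and 13.5% of all genes tested did so, and in either direction in 36.7% of them against 27.2% of all genes tested. The median log2 fold change was 0.05 over the 79 and -0.00 over all genes. The split of calls depended on the scaling of the libraries. With total counts alone the median of all genes moved to -0.14, a shift of all values that the 79 share. The split of calls became 3 higher and 6 lower among the 79, and 274 higher and 889 lower among all genes. With RLE factors it was 7 and 2 among the 79, and 428 and 336 among all genes. With upper-quartile factors it was 6 and 2 among the 79, and 383 and 370 among all genes.

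**Figure D1:**
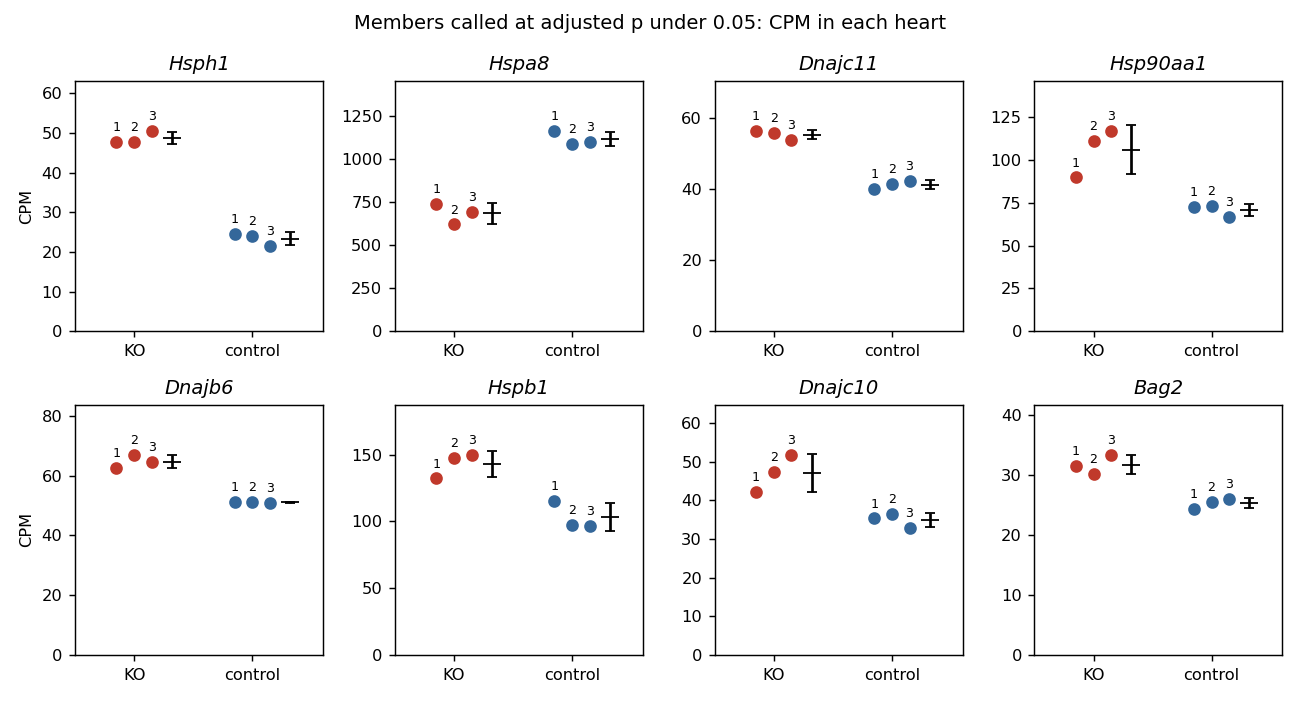
CPM (vertical axis, from 0) of the 8 called chaperone genes in each KO heart (left) and each control heart (right), with points for hearts 1 to 3 and bars for the mean and SD (n = 3 each). KO and control points do not overlap in any of the 8 panels, and relative to the controls the gap is widest for Hsph1.

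Heat shock factors bind repeats of the unit GAA in alternating orientation, and the ER stress response element is CCAAT followed at a fixed distance by CCACG. To show where such letters stand in the genes described here, RefSeq promoter windows (GRCm38.p6, 250 bases before to 50 after the start) were searched on both strands, and 63 of the 79 genes had a window. The motif GAANNTTC, where N is any base, stood in 15 of the 63 (23.8%) and in 7.07% of the 9237 genes of the table with a window. A longer motif, the same letters followed after any 2 bases by GAA, contains the shorter one and stood in 4 of the 63 (6.35%; Hsph1, Dnajb6, Hspd1 and Hspe1) and in 0.595% of the table. The ER element, CCAAT followed after any 9 bases by CCACG, stood in 3 (4.76%; Hspa5, Hsp90b1 and Dnajc3) and in 0.162% of the table. A match is a run of letters, not a measured binding site.

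The sequences below, 5′ to 3′ on the strand of the gene, are those of the 3 called genes with a match, of 2 of the 12 uncalled genes with GAANNTTC (Hspe1, with the longer motif, and Hspa1b, a strongly heat-inducible Hsp70) and of the 3 genes with the ER element. Capitals mark the matches. Hsph1 spans chr5:149636287-149636311 (minus strand), downstream of the start. Hspb1 is chr5:135887789-135887848 (plus), Dnajb6 is chr5:29735818-29735877 (plus) and Hspe1 is chr1:55088038-55088097 (plus). The Hspd1 window lies over the same bases on the other strand. Hspa1b is chr17:34959309-34959368 (minus), Hspa5 is chr2:34772000-34772059 (plus), Hsp90b1 is chr10:86705515-86705674 (minus) and Dnajc3 is chr14:118937812-118937871 (plus).
Hsph1: aatgctgcagaTTCTGGAAAGTTCt
Hspb1: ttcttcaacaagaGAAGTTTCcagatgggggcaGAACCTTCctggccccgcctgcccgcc
Dnajb6: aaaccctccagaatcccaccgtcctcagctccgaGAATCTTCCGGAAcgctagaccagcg
Hspe1: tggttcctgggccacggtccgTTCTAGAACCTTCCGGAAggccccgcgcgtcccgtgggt
Hspa1b: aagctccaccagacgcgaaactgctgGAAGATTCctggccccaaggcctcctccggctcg
Hspa5: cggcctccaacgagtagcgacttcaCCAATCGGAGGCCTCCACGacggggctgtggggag
Hsp90b1: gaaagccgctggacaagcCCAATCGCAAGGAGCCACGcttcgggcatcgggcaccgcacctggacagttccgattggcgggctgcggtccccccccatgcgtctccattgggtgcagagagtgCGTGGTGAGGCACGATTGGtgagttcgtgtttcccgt
Dnajc3: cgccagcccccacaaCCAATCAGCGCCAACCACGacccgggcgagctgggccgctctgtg

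Of the 8 called genes, 5 had a window (Hsph1, Hspb1, Dnajb6, Dnajc10 and Bag2) and 3 of them held GAANNTTC (Hsph1, Hspb1 and Dnajb6). Of the 58 uncalled genes with a window, 12 held it. The called genes Hspa8, Hsp90aa1 and Dnajc11 had no window. As 71 of all 79 genes were uncalled, these counts rest on few called genes, and the relation of the letters to the calls was not tested. The matches differ in arrangement. Hsph1 and Dnajb6 have 1 run of the longer motif, Hspb1 has separate short motifs that start 117 and 97 bases upstream of the start, and Hspe1 has overlapping copies of the longer one. Hspa1a and Hspa1b, whose windows differ at 4 of 300 bases, have 1 short motif 104 bases upstream. None of the genes with the ER element was called by edgeR on all 6 hearts with TMM factors. DESeq2 called Hspa5 higher, as did edgeR without KO 1, and edgeR with total counts alone called Dnajc3 lower.

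Hsph1 showed the largest rise of the 79. It encodes Hsp110, a nucleotide exchange factor that resets Hsp70 after each cycle (ENSMUSG00000029657, chromosome 5, 149614287 to 149636376). It had 47.8, 47.7 and 50.5 CPM in KO hearts and 24.5, 24.0 and 21.5 CPM in control hearts. All KO hearts lay far above all controls, with little spread in either group. The mean was 48.7 ± 1.56 CPM in KO hearts and 23.4 ± 1.61 CPM in control hearts (SD, n = 3 each), a 2.08-fold rise (log2 fold change 1.06, SE 0.08, edgeR adjusted p = 0.00041). It was called under all 15 scalings, filters, tests and omissions of a library that were tried, and no near-identical copy of its transcript was found. Of 42 tested genes within 5 Mb on either side, 1 was called.

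Its relatives of the Hsp110 branch, Hspa4 and Hspa4l, did not pass edgeR's test on all 6 hearts without a block. Hspa4l was called higher by DESeq2, by limma voom with sample quality weights, with the heart number as a block and without KO 1, and voom also called Hspa4. Hspa4l had 40.9, 57.3 and 50.3 CPM in KO hearts and 31.6, 37.3 and 29.9 CPM in control hearts. The groups did not overlap, but the KO hearts were spread widely (log2 fold change 0.59, SE 0.14, edgeR adjusted p = 0.0554). Hspa4 averaged 137 ± 7.89 CPM in KO hearts and 118 ± 7.96 CPM in control hearts, again without overlap (edgeR adjusted p = 0.222).

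Hspa8, the constitutive Hsp70 of the cytosol (ENSMUSG00000015656, chromosome 9, 40800984 to 40805200), was the gene called lower, and its counts are uncertain. It had 738, 619 and 691 CPM in KO hearts and 1160, 1087 and 1099 CPM in control hearts. Every KO heart lay below every control. The ratio was 1.63-fold lower in KO hearts (log2 fold change -0.71, SE 0.09, edgeR adjusted p = 0.00551), and the call was lost without control 1 (adjusted p = 0.0508). Of 63 tested genes within 5 Mb on either side, 11 were called (17.5%, against 6.03% of all genes). The table also holds 2 genes, both at 1 place on chromosome 5, that are near-copies of its transcript. Gm15459, a processed pseudogene (5781615 to 5783555), is 99.7% identical over 1953 bases, and the long non-coding Gm26825 (5781530 to 5783636) is 99.4% identical over 2033 bases.

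Both copies were called higher in KO hearts, the opposite direction to Hspa8 (edgeR adjusted p = 7.59e-07 for Gm26825 and 0.000177 for Gm15459). Gm26825 had 33859, 24266 and 27700 counts in KO hearts and 29, 21 and 32 in control hearts. Gm15459 had 8392, 12859 and 14199 counts in KO hearts and 0 in each control heart. A count of 0 there still allows up to 3 counts, or 0.0400 to 0.0502 unadjusted CPM, by counting error alone. Hspa8 made up 54.9%, 51.8% and 52.6% of the summed counts of the 3 genes in KO hearts, against 99.97%, 99.97% and 99.95% in control hearts. The sum was 1343, 1195 and 1313 CPM in KO hearts and 1161, 1088 and 1100 CPM in control hearts. So the summed level was higher in each KO heart than in each control heart, opposite in direction to Hspa8 alone. Tested as 1 gene, a choice made after the data were seen, the sum had a log2 fold change of 0.20 (SE 0.09, unadjusted p = 0.0486, edgeR adjusted p = 0.229) and was not called. RSEM, which the submitters' processing notes name, divides reads that match several genes among them, and how the reads of these genes were divided was not tested. A further 7 near-identical sequences were not analysed here.

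**Figure D2:**
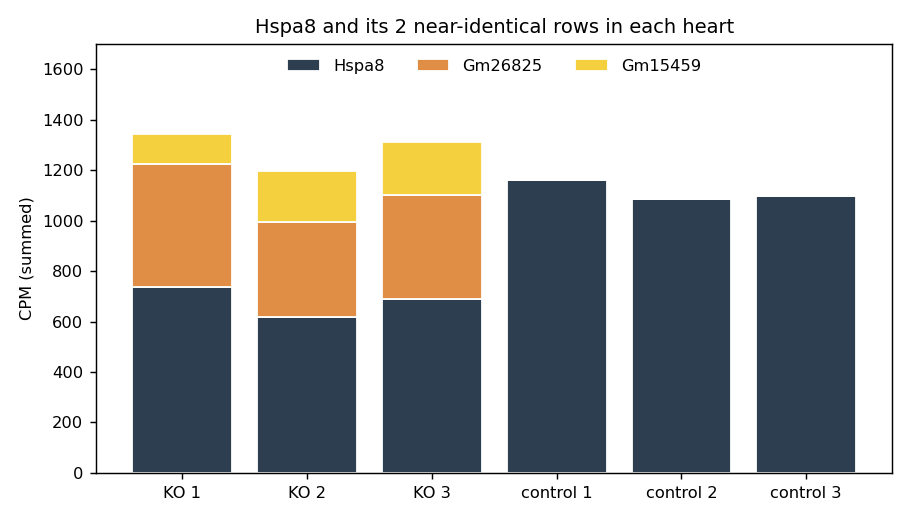
CPM of Hspa8 and of its near-identical copies Gm26825 and Gm15459, stacked for each KO heart (left) and each control heart (right). The copies make up a large part of each KO column and hardly show in the control columns, and the KO columns are taller than the control columns.

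The stress-inducible Hsp70 genes Hspa1a and Hspa1b, which rise strongly under heat, were scarce in both groups. Hspa1a had 1.32, 1.78 and 1.19 CPM in KO hearts and 2.22, 1.67 and 1.40 CPM in control hearts. Hspa1b had 1.09, 1.46 and 1.16 CPM in KO hearts and 1.53, 1.53 and 1.18 CPM in control hearts. The groups overlapped for both, and the pair is 99.1% identical over 2197 bases, so their split is uncertain. Summed as 1 gene they averaged 2.67 ± 0.501 CPM in KO hearts and 3.18 ± 0.585 CPM in control hearts (log2 fold change -0.26, SE 0.19, edgeR adjusted p = 0.503). Hspa2, best known from male germ cells, averaged 3.13 ± 0.451 CPM in KO hearts and 4.21 ± 0.351 CPM in control hearts without overlap (edgeR adjusted p = 0.133). Voom with sample quality weights called Hspa2 lower. Hspa1l, Hspa12a, Hspa12b and Hspa14 had overlapping groups, and Hspa1l shares sequence with the antisense gene Gm10501, so its count is uncertain. Over the 11 cytosolic Hsp70 and Hsp110 genes 1 was called higher and 1 lower (18.2%, against 6.03% of all genes). The median log2 fold change of the 11 was -0.05.

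Hsp90aa1, the inducible cytosolic Hsp90 (ENSMUSG00000021270, chromosome 12, 110690605 to 110702728), rose. It had 89.9, 111 and 117 CPM in KO hearts and 72.8, 72.9 and 66.6 CPM in control hearts. KO 1 was the lowest KO heart and still above every control. The rise was 1.498-fold (log2 fold change 0.58, SE 0.11, edgeR adjusted p = 0.0262). It was called without KO 1 (adjusted p = 0.000456) and lost without any other single library (0.0801 to 0.112). Hsp90aa1 has 5 near-identical pseudogenes with no value here, Gm12346 being 99.5% identical, so its count is uncertain.

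Hsp90ab1, the constitutive partner, had 1079, 991 and 1037 CPM in KO hearts and 907, 890 and 851 CPM in control hearts. The groups did not overlap, yet its log2 fold change of 0.23 did not pass (SE 0.08, edgeR adjusted p = 0.157). DESeq2 and voom with sample quality weights called Hsp90ab1 higher. The ratio of Hsp90ab1 to Hsp90aa1 counts was 12.0, 8.90 and 8.87 in KO hearts and 12.5, 12.2 and 12.8 in control hearts. KO 1 thus had a ratio near the controls, while KO 2 and KO 3 had lower ones.

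Among 6 small heat shock proteins Hspb1 was called (16.7%, against 6.03% of all genes). Hspb1 (Hsp25 in the mouse, ENSMUSG00000004951, chromosome 5, 135887919 to 135889563) binds unfolded proteins and actin filaments. It had 132, 148 and 150 CPM in KO hearts and 115, 97.7 and 96.8 CPM in control hearts. KO 1 and control 1 lay nearest to each other, without overlap. The rise was 1.39-fold (log2 fold change 0.47, SE 0.10, edgeR adjusted p = 0.037), was called without KO 1 (adjusted p = 0.00527) and was lost without any other single library (0.0579 to 0.149) and with total counts alone (0.0707). Its near-copies Hsp25-ps1 and Gm9817, over 99% identical, have no value here, so its count is uncertain.

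The other small heat shock proteins did not pass edgeR's test on all 6 hearts. Without KO 1, Hspb2 was called lower, as it was by voom with sample quality weights. Hspb8, which works with Bag3 in clearing damaged sarcomere proteins, averaged 459 ± 30.5 CPM in KO hearts and 386 ± 25.5 CPM in control hearts (log2 fold change 0.25, edgeR adjusted p = 0.174), and the groups did not overlap. Hspb7, the heart and muscle member that had the highest level of all 79, averaged 1721 ± 174 CPM in KO hearts and 1767 ± 80.4 CPM in control hearts (log2 fold change -0.04, edgeR adjusted p = 0.883). Hspb2 had 56.5, 40.0 and 38.5 CPM in KO hearts and 54.1, 48.8 and 58.2 CPM in control hearts, with KO 1 among the controls and the other KO hearts below them (log2 fold change -0.26, edgeR adjusted p = 0.399). Hspb6, known as Hsp20, averaged 631 ± 39.9 CPM in KO hearts and 611 ± 25.2 CPM in control hearts, and Hspb3 6.499 ± 1.31 CPM in KO hearts and 5.71 ± 0.807 CPM in control hearts, both with overlap. Hspb11, also known as the intraflagellar transport protein Ift25, is in the set by its symbol alone and averaged 2.39 ± 0.176 CPM in KO hearts and 1.95 ± 0.398 CPM in control hearts (edgeR adjusted p = 0.394).

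Of 13 ER chaperones, 1 was called higher (7.69%, against 3.29% of all genes) and none lower (against 2.74%). The 1 with a negative value (Dnajc3) had an unadjusted p under 0.05. DESeq2 also called Hspa5 higher. Without KO 1, edgeR called Hspa5, Dnajb14, Dnajc16, Dnajc25 and Hspa13 higher as well, and so did voom with sample quality weights. Those 2 settings called 22.8% and 27.9% of all genes. Dnajc3 was called lower by voom and with total counts alone. A positive log2 fold change was found in 12 of the 13, with a median of 0.20, and under each of the 4 scalings 12 exceeded the median of all genes. With total counts alone 7 of the 13 were above 0. Dnajc10 (ERdj5, ENSMUSG00000027006, chromosome 2, 80315466 to 80354043), a disulfide reductase that helps to degrade misfolded ER proteins, was called. It had 42.2, 47.3 and 51.8 CPM in KO hearts and 35.4, 36.5 and 32.9 CPM in control hearts. The lowest KO heart, KO 1, was above the highest control (1.35-fold, log2 fold change 0.43, SE 0.10, edgeR adjusted p = 0.0432). The call stood without KO 1 (adjusted p = 0.00292) and was lost without any other single library (0.104 to 0.163) and with total counts alone (0.0971). Dnajc10 lies among other called genes, with 15 of 52 tested genes called within 5 Mb on either side (28.8%). Around the other called chaperone genes apart from Hspa8 this share ran from 2.38% to 7.69%. Whether position bears on the change of Dnajc10 or Hspa8 was not tested.

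Hspa5, the ER Hsp70 known as BiP, had 447, 397 and 549 CPM in KO hearts and 342, 347 and 341 CPM in control hearts. Each KO heart was above the narrow band of controls, but the KO hearts were far apart from each other (log2 fold change 0.43, SE 0.12, edgeR adjusted p = 0.0941). Hsp90b1, the ER Hsp90 known as Grp94, averaged 249 ± 31.98 CPM in KO hearts and 216 ± 3.90 CPM in control hearts, and the groups overlapped (log2 fold change 0.20, edgeR adjusted p = 0.328). Dnajc3, which restrains the ER stress kinase PERK, was the 1 ER gene with a negative value, at 31.1 ± 1.65 CPM in KO hearts and 35.9 ± 1.89 CPM in control hearts (log2 fold change -0.21, edgeR adjusted p = 0.186). These are the genes whose windows hold the ER element, and they did not share a direction. Dnajb9, an inhibitor of the stress sensor IRE1, averaged 32.3 ± 2.87 CPM in KO hearts and 31.8 ± 1.36 CPM in control hearts.

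The remaining ER genes had small positive values that did not pass. Dnajc25 averaged 18.1 ± 0.483 CPM in KO hearts and 15.3 ± 0.436 CPM in control hearts without overlap (log2 fold change 0.24, edgeR adjusted p = 0.113). Dnajb14, a J protein of the ER membrane, had 14.1, 16.1 and 17.3 CPM in KO hearts and 12.8, 14.1 and 11.4 CPM in control hearts, so that KO 1 and control 2 nearly touched (log2 fold change 0.31, edgeR adjusted p = 0.17). Dnajc18 and Dnajc1 also had every KO heart above every control, at 24.0 ± 0.767 CPM in KO hearts and 22.1 ± 0.879 CPM in control hearts for Dnajc18, and at 18.7 ± 0.148 CPM in KO hearts and 17.5 ± 0.892 CPM in control hearts for Dnajc1. In Dnajc16, Hspa13, Dnajb11 and Dnajb12 the groups overlapped. The summed level of the 13 was 907 to 1138 CPM in KO hearts and 816 to 838 CPM in control hearts, of which Hspa5 and Hsp90b1 made up the greater part.

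Of 10 mitochondrial chaperones, 1 was called (10%, against 6.03% of all genes). Dnajc11 (ENSMUSG00000039768, chromosome 4, 151933691 to 151982137), a J protein associated with the complex that shapes the cristae, had 56.4, 55.9 and 53.8 CPM in KO hearts and 40.1, 41.4 and 42.4 CPM in control hearts. Both groups were tight and far apart (1.34-fold higher, log2 fold change 0.42, SE 0.07, edgeR adjusted p = 0.0123). The call held without any 1 KO library and was lost without control 1, control 2 or control 3 (0.0569 to 0.108). Dnajc11 shares 377 bases at 91.8% identity with the antisense gene Gm12953, and shorter stretches with further transcripts, so its count is uncertain. Dnajc28 followed at 45.0 ± 0.199 CPM in KO hearts and 38.5 ± 2.21 CPM in control hearts, without overlap (edgeR adjusted p = 0.125). Voom with sample quality weights called Dnajc28 higher.

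The folding machine of the mitochondrial matrix showed no called change. Hspd1, the Hsp60 chaperonin, had 361, 311 and 340 CPM in KO hearts and 323, 356 and 334 CPM in control hearts (log2 fold change 0.00, SE 0.09). Hspd1-ps3, a pseudogene 98.96% identical to it over 1722 bases, has no value here, so the count of Hspd1 is uncertain. Hspe1, its Hsp10 lid, had 97.6, 59.5 and 67.0 CPM in KO hearts and 67.5, 65.0 and 75.5 CPM in control hearts. KO 1 was the high heart for Hspe1 and the other KO hearts lay within or below the controls. Hspa9, the matrix Hsp70, averaged 712 ± 27.9 CPM in KO hearts and 646 ± 23.5 CPM in control hearts without overlap (log2 fold change 0.14, edgeR adjusted p = 0.368). Dnaja3, the J partner of Hspa9, had 135, 121 and 122 CPM in KO hearts and 113, 117 and 115 CPM in control hearts, also without overlap (log2 fold change 0.13, edgeR adjusted p = 0.395). Dnajc15 and Dnajc19, J proteins of the import motor, repeated the pattern of Hspe1 with a high KO 1. Dnajc15 had 75.6, 45.9 and 47.5 CPM in KO hearts and 56.8, 48.2 and 62.5 CPM in control hearts, and Dnajc19 had 46.6, 31.7 and 34.0 CPM in KO hearts and 36.4, 32.04 and 40.0 CPM in control hearts. Dnajc4 and Dnajc30 overlapped between groups. Dnajc4 was called lower without KO 1 and by voom with sample quality weights, which called 22.8% and 27.9% of all genes.

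Counting the ER and mitochondrial ones above, 37 of the genes encode J proteins, which deliver clients to Hsp70. With edgeR 3 were called higher (8.11%, against 3.29% of all genes) and none lower (against 2.74%). An unadjusted p under 0.05 was found in 12 of the 37, 5 of them with negative values, and in 2732 of all 12686 genes tested. DESeq2 called Dnajc5 and Dnajc7 lower. The median log2 fold change of the 37 was 0.07. Dnajb6 (ENSMUSG00000029131, chromosome 5, 29735688 to 29786478), which keeps aggregation-prone proteins soluble and is a limb-girdle muscular dystrophy gene in humans, had 62.6, 67.0 and 64.7 CPM in KO hearts and 51.2, 51.1 and 50.9 CPM in control hearts. The controls hardly differed and every KO heart was above them (1.27-fold, log2 fold change 0.34, SE 0.07, edgeR adjusted p = 0.0272). It was called without KO 1 (adjusted p = 0.00532) and lost without any other single library (0.0937 to 0.156) and with total counts alone (0.107). Dnajb6 has 8 near-identical copies with no value here, so its count is uncertain.

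Dnajc5, Dnajb1, Dnajc7 and Dnaja1 had negative values. None passed edgeR's test on all 6 hearts with TMM factors and no block by heart number. Dnajc5, the cysteine string protein of secretory vesicles, had 30.1, 43.2 and 33.5 CPM in KO hearts and 50.8, 55.7 and 52.6 CPM in control hearts. All KO hearts were below all controls, with KO 2 nearest to them (log2 fold change -0.58, SE 0.13, edgeR adjusted p = 0.0513). It stood just outside the threshold and was called lower in 9 of the 15 settings. Dnajb1, the main J partner of inducible Hsp70, had 9.63, 8.503 and 8.17 CPM in KO hearts and 10.8, 11.2 and 10.7 CPM in control hearts (log2 fold change -0.31, SE 0.09, edgeR adjusted p = 0.106). Dnajc7, which links Hsp70 to Hsp90, averaged 50.2 ± 2.62 CPM in KO hearts and 59.3 ± 1.12 CPM in control hearts (log2 fold change -0.24, edgeR adjusted p = 0.105). For both, the groups did not overlap, and both were called lower without KO 1, by voom and with total counts alone. Dnaja1 also lay lower in each KO heart, at 37.6 ± 1.61 CPM in KO hearts and 42.5 ± 2.00 CPM in control hearts (edgeR adjusted p = 0.226). Its pseudogene Gm15542 is 99.4% identical over 1194 bases, so the count of Dnaja1 is uncertain.

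Of the other class A and B J proteins, Dnaja2 averaged 198 ± 2.86 CPM in KO hearts and 185 ± 2.72 CPM in control hearts, the highest level of that class and without overlap (log2 fold change 0.10, edgeR adjusted p = 0.497). Dnajb4, Dnajb2, Dnajb5 and Dnaja4 overlapped between groups. Among class C proteins, which share only the J domain, Dnajc13, a protein of endosomes, had 28.0, 36.5 and 37.4 CPM in KO hearts and 28.4, 30.6 and 24.0 CPM in control hearts. KO 1 lay among the controls (log2 fold change 0.30, SE 0.14, edgeR adjusted p = 0.275). Dnajc27 averaged 13.4 ± 1.40 CPM in KO hearts and 11.2 ± 1.03 CPM in control hearts with overlap (edgeR adjusted p = 0.232). Dnajc13 and Dnajc27 were called higher without KO 1 and by voom with sample quality weights, which called 22.8% and 27.9% of all genes. Dnajc2, Dnajc8, Dnajc9, Dnajc12, Dnajc14, Dnajc17, Dnajc21 and Dnajc24 overlapped too, with log2 fold changes from -0.15 to 0.11. Dnaja4 and Dnajc14 share transcript sequence with Wdr61 and Ormdl2, so their counts are uncertain.

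Of 6 BAG proteins, 1 was called (16.7%, against 6.03% of all genes). Bag2 (ENSMUSG00000042215, chromosome 1, 33745484 to 33757795), which inhibits the ubiquitin ligase CHIP, had 31.5, 30.2 and 33.3 CPM in KO hearts and 24.3, 25.5 and 25.9 CPM in control hearts. The groups did not overlap (1.26-fold higher, log2 fold change 0.33, SE 0.07, edgeR adjusted p = 0.0469). This was the called gene nearest to the threshold. It was called without KO 1 (adjusted p = 0.0167) and lost without any other single library (0.0845 to 0.237), with upper-quartile factors (0.0568) and with total counts alone (0.156). Bag3, the cardiac member in which human mutations cause cardiomyopathy, had 184, 180 and 158 CPM in KO hearts and 191, 162 and 158 CPM in control hearts, which overlapped (log2 fold change 0.03, edgeR adjusted p = 0.905). Bag1, Bag4, Bag5 and Bag6 overlapped too.

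None of the heat shock factors was called by edgeR, where none had an unadjusted p under 0.05, nor by DESeq2 or limma-trend. Hsf1, the main regulator of the heat shock response, averaged 17.3 ± 1.15 CPM in KO hearts and 16.05 ± 1.16 CPM in control hearts (log2 fold change 0.11, edgeR adjusted p = 0.542). Hsf2 averaged 8.75 ± 0.418 CPM in KO hearts and 9.99 ± 0.428 CPM in control hearts (log2 fold change -0.19, edgeR adjusted p = 0.251). The RNA level of HSF1 does not measure its activity, which is set largely on the protein. Taking the 15 genes listed as inducible by heat or by HSF1, 3 were called higher (Hsph1, Hsp90aa1 and Hspb1; 20% against 3.29% of all genes) and 1 lower (6.67% against 2.74%), with a median log2 fold change of 0.11. The 1 called lower was Hspa8, whose counts are uncertain and whose sum with its copies was not called. The calls of Hsp90aa1 and Hspb1 were lost on omission of any single library other than KO 1. Beside the 4 called genes the list held Hspa1a, Hspa1b, Hspa4l, Hsp90ab1, Hspb8, Hspd1, Hspe1, Dnaja1, Dnajb1, Dnajb4 and Bag3. Of the list, Hspa8 and Hsp90ab1 are named constitutive above. The strongly inducible Hspa1a, Hspa1b and Dnajb1 were not among those called higher and had negative values.

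The 7 subunits of the cytosolic chaperonin, which folds actin and tubulin, all kept close to 0. Their log2 fold changes ran from -0.14 for Cct7 to 0.11 for Cct3. None was called by edgeR, where none had an unadjusted p under 0.05, nor by DESeq2 or limma-trend. KO 1 was the highest KO heart for all 7. Cct7 had 114, 87.0 and 90.5 CPM in KO hearts and 108, 105 and 108 CPM in control hearts. Without KO 1, Cct7 was called lower (adjusted p = 0.0244), as it was by limma voom with sample quality weights (0.0240). Tcp1, the remaining subunit, which the symbol rule leaves out, averaged 129 CPM in KO hearts and 125 CPM in control hearts (edgeR adjusted p = 0.79).

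**Figure D3:**
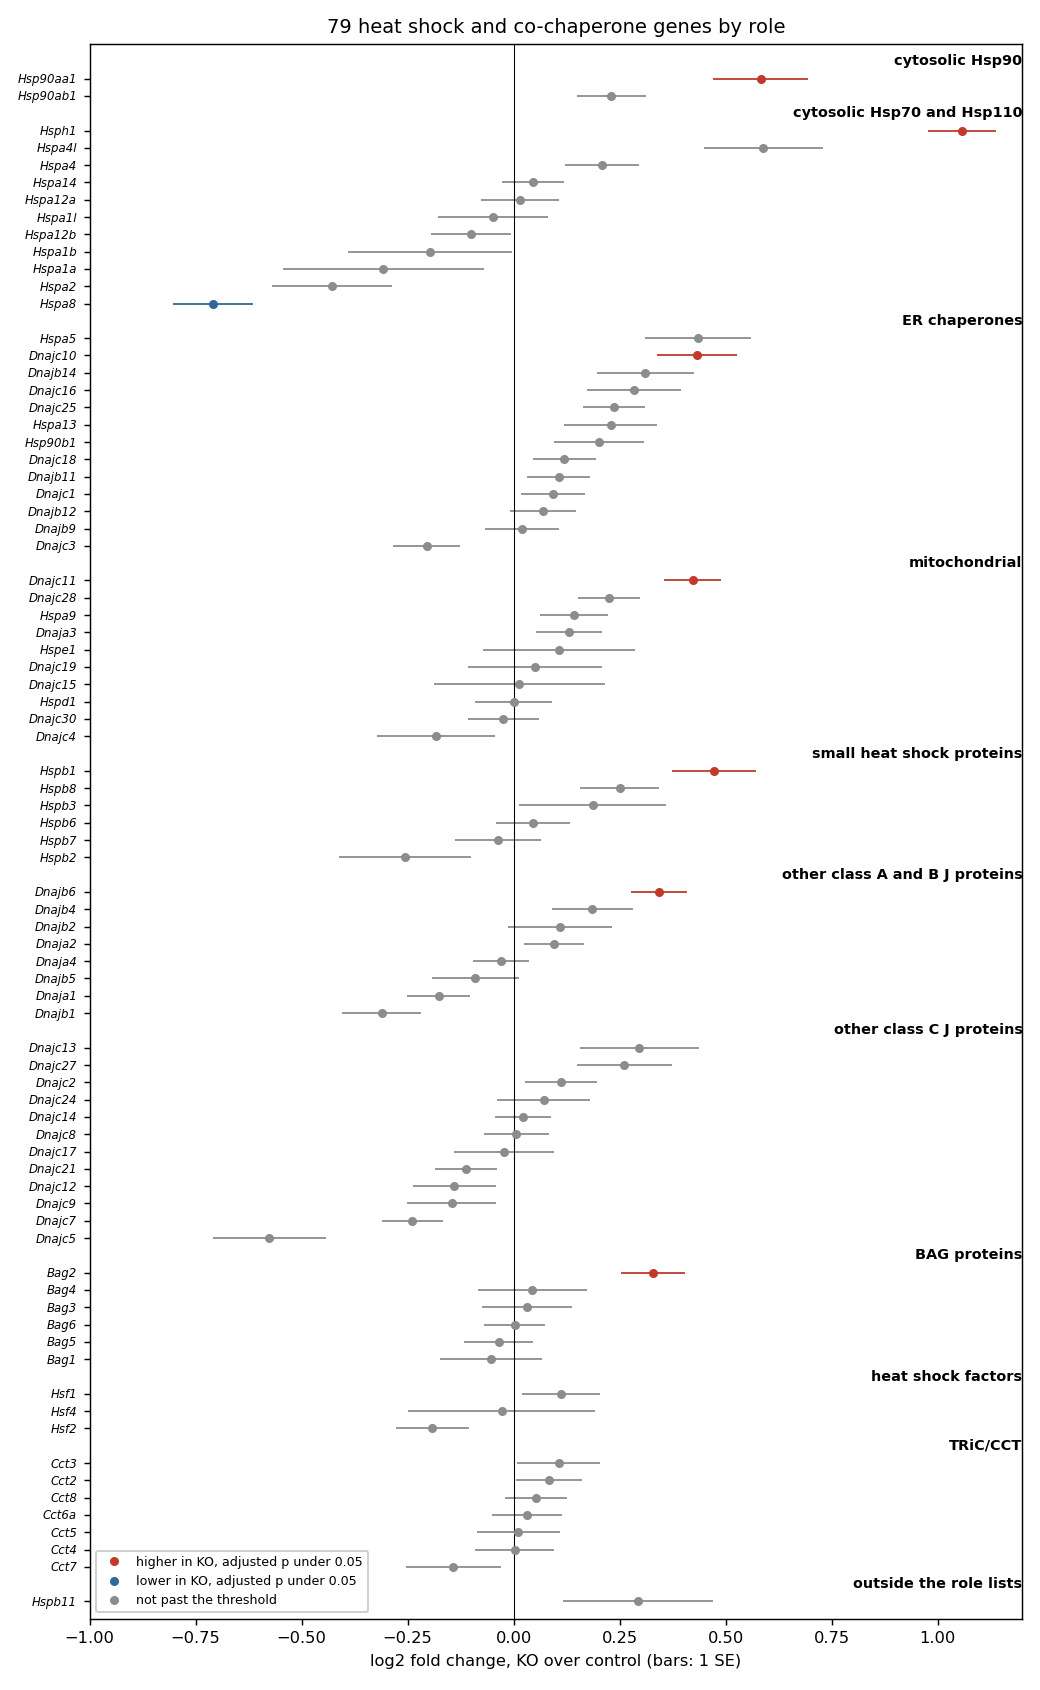
Log2 fold change, KO over control, of the 79 chaperone genes by role, with bars for the standard error of the edgeR fit and the called genes marked. Hsph1 lies at 1.06 and Hspa8 at -0.71, 12 of the 13 ER genes lie right of 0, and the chaperonin subunits lie between -0.14 and 0.11.

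KO 1 often lay above the other KO hearts. It was the highest of the 3 KO hearts in 42 of the 79 (53.2%) and in 41.2% of all genes tested. It was so in 9 of 10 mitochondrial genes and 5 of 6 small heat shock proteins, but in 2 of 13 ER genes, where KO 3 was highest in 9. Without KO 1, 15 of the 79 were called higher and 7 lower (27.8%). Of all 12692 genes tested without KO 1, 1567 were called higher and 1329 lower (22.8%). The fibroblast markers summed to 305 CPM in KO 1, 658 CPM in KO 2 and 572 CPM in KO 3, and to 522 to 565 CPM in control hearts. The part of this difference in the values of KO 1 was not tested.

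Levels of different genes were compared per length. In CPM per kilobase of merged exons, Hspb7 had 622 in KO hearts and 638 in control hearts, and Hsp90ab1 had 345 in KO hearts and 294 in control hearts. Hspb6 had 274 in KO hearts and 266 in control hearts, and Hspb8 235 in KO hearts and 198 in control hearts. Hspa8 had 159 in KO hearts and 259 in control hearts, with the uncertainty given above. In all, 10 genes exceeded 100 CPM per kilobase in KO hearts and 4 lay under 1. The lowest levels per kilobase were those of Hspa1b, at 0.441 in KO hearts and 0.504 in control hearts, and Hspa1a, at 0.482 in KO hearts and 0.594 in control hearts. The median of the 79 was 8.86 in KO hearts and 8.25 in control hearts. In whole-heart RNA, fewer cells of a type and less RNA per cell cannot be told apart.

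**Figure D4:**
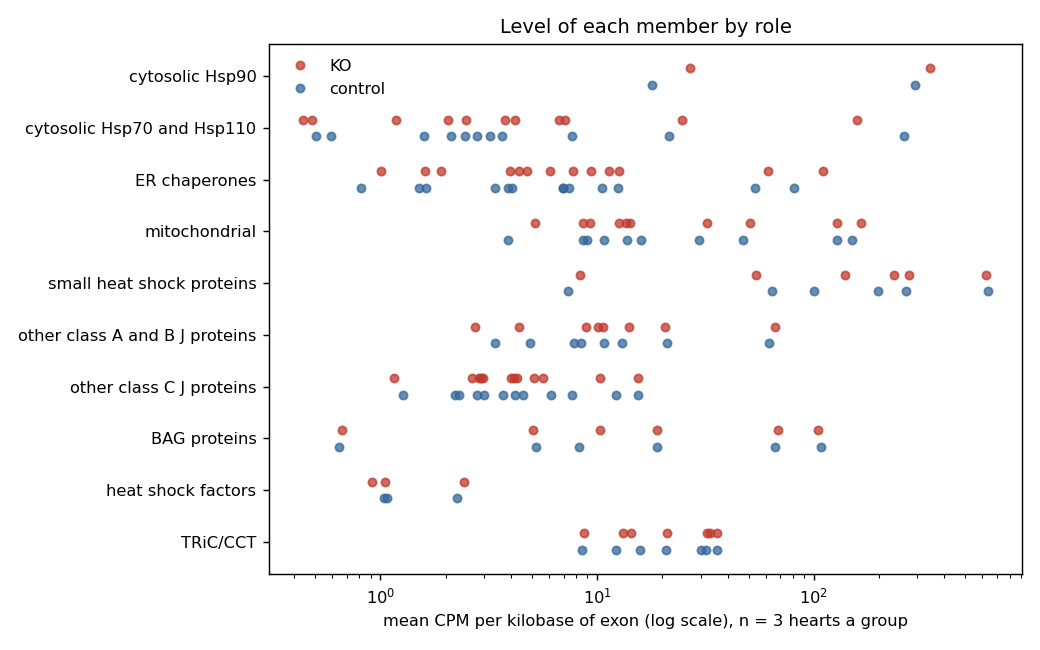
Mean level of each chaperone gene in CPM per kilobase (log axis), with 1 point a gene and KO above control within each role, for the 78 genes of the role lists (Hspb11 left out). Hspb7 is the highest at 622 in KO hearts and Hspa1b the lowest at 0.441.

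Partners outside the symbol rule were taken from a list of Hsp90 co-chaperones, prefoldins and chaperones of the mitochondria and ER. Of 54 listed, 52 were in the table, and 3 were called higher and 1 lower (7.69%, against 6.03% of all genes). Grpel2, a nucleotide exchange factor of mitochondrial Hsp70, had 18.6, 18.5 and 21.3 CPM in KO hearts and 12.9, 12.9 and 12.7 CPM in control hearts (log2 fold change 0.60, SE 0.09, edgeR adjusted p = 0.00759), and its call was lost without control 1 (0.0527). All KO hearts were well above the controls. Cdc37l1, a relative of the kinase co-chaperone Cdc37, had 75.6, 85.0 and 85.2 CPM in KO hearts and 62.7, 61.7 and 53.4 CPM in control hearts (log2 fold change 0.47, SE 0.09, edgeR adjusted p = 0.0301). Clpb, a mitochondrial disaggregase, had 66.9, 68.3 and 68.5 CPM in KO hearts and 55.8, 56.1 and 54.1 CPM in control hearts (log2 fold change 0.29, SE 0.06, edgeR adjusted p = 0.0424). The groups did not overlap for Cdc37l1 or Clpb. Both calls stood without KO 1 alone and were lost without any other single library (0.0912 to 0.108 for Cdc37l1, 0.123 to 0.213 for Clpb) and with total counts alone (0.0694 for Cdc37l1, 0.179 for Clpb). With upper-quartile factors the call of Clpb was lost as well (0.0517).

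Serpinh1, the collagen chaperone Hsp47 of the ER, was the gene of that list called lower. It had 62.4, 71.5 and 71.1 CPM in KO hearts and 123, 110 and 134 CPM in control hearts. Every KO heart was far below every control (log2 fold change -0.84, SE 0.10, edgeR adjusted p = 0.00384), and it was called in all 15 settings. Of 7 fibroblast markers, which sum to the values given above, none was called. Of 7 smooth muscle and pericyte markers 1 was called lower, Acta2, at 53.8 ± 2.83 CPM in KO hearts and 109 ± 19.1 CPM in control hearts, and their sum was 438 to 548 CPM in KO hearts and 604 to 700 CPM in control hearts, without overlap. No marker of that list was at 0 in any heart, DESeq2 also called Rgs5 lower, and their part in the values of Serpinh1 was not tested. Cryab, the small heat shock protein αB-crystallin that the rule leaves out, had 1350, 781 and 937 CPM in KO hearts and 987, 883 and 1038 CPM in control hearts (edgeR adjusted p = 0.87), with KO 1 the high heart.

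Immediate early genes can rise when tissue is handled before freezing. The 7 tested summed to 68.4 to 77.3 CPM in KO hearts and 64.6 to 75.3 CPM in control hearts. Macrophage markers summed to 154 to 195 CPM in KO hearts and 161 to 205 CPM in control hearts, and endothelial markers to 405 to 649 CPM in KO hearts and 533 to 561 CPM in control hearts. None of these genes or of the fibroblast markers was called or had an unadjusted p under 0.05 with edgeR, and DESeq2 and limma-trend called none. Limma voom with sample quality weights called 1 endothelial (Kdr), 1 fibroblast (Lum) and 1 macrophage marker (Mrc1) higher. Neutrophil markers were scarce, at 2.29 to 2.85 CPM in KO hearts and 0.944 to 1.81 CPM in control hearts, and the summed levels did not overlap. Every KO heart was above every control for S100a8 (log2 fold change 1.24, unadjusted p = 0.0061, edgeR adjusted p = 0.0753) and S100a9 (1.08, unadjusted p = 0.0319, edgeR adjusted p = 0.184), of the 3 neutrophil genes tested. DESeq2 and limma voom with sample quality weights called S100a8 higher, and the authors' deposited table gave adjusted p = 0.00754 for S100a8 and 0.0135 for S100a9. The part of these cells in the chaperone values was not tested. Members on chromosome 17, which carries Nkx2-5, were Hspa1a, Hspa1b, Hspa1l, Bag6 and Hsp90ab1, from 8.12 to 18.7 Mb away. None was called by edgeR and 1 had an unadjusted p under 0.05 (Hsp90ab1). DESeq2 and voom with sample quality weights called that gene higher.

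The authors' deposited table, with its own test, called 6 of the 79 (7.59%, against 6.43% of all genes). Higher in KO hearts in the authors' deposited table were Hsph1 (adjusted p = 0.000279), Hspa4l (0.00882), Dnajc11 (0.0286), Dnajc10 (0.0334) and Hspb1 (0.0489). Dnajc5 was lower there (0.00225). The calls shared with the edgeR test were 4, namely Hsph1, Dnajc11, Dnajc10 and Hspb1. Hspa8 did not pass in the authors' deposited table (adjusted p = 0.0879), nor did Hsp90aa1 (0.0545), Dnajb6 (0.124) or Bag2 (0.449).

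**Figure D5:**
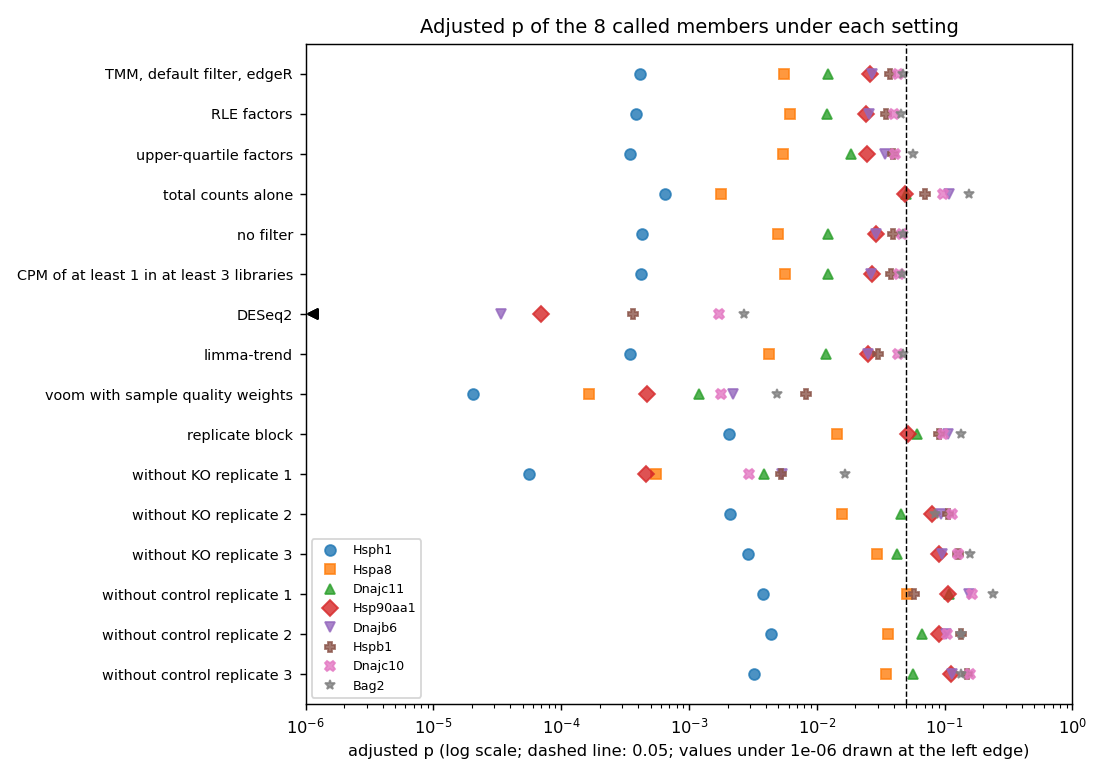
Adjusted p of the 8 called genes (colours) under each scaling, filter, test and omitted library (rows), on a log axis with a dashed line at 0.05. Under DESeq2, Hsph1, Hspa8 and Dnajc11 lie below 1e-06 and share the black triangle at the left edge. Hsph1 stays past the threshold in every row, Hspa8 crosses it without control 1, and most others cross it when a library other than KO 1 is left out.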

How the data were processed

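RNA-seq of whole hearts from 3 KO and 3 control mice was analysed, after poly(A) selection and column extraction per the labels' protocols. RSEM 1.17, Picard, cutadapt, edgeR and genome build GRCm38 are listed in the submitters' processing notes without their roles. The sources used here do not name the aligner, annotation release or strand setting. Per the file headers the authors deposited raw values, taken as estimated counts rounded to whole numbers because the notes name RSEM, and a normalized signal with its means. The authors' deposited log2 fold change, signed fold change (a score) and p-value describe their own comparison, and their adjusted p-value was copied.

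The deposited estimated counts of the whole table were fitted with edgeR 4.0.16 in R 4.3.3 (TMM factors, default filter by group, robust quasi-likelihood F test, all 6 libraries, no covariate), which removed 138 of 12824 genes and left 12686. Adjusted p-values are Benjamini-Hochberg over all genes tested, with a threshold of 0.05. They weigh the difference between the groups against the spread between these hearts. The common biological coefficient of variation over the genes tested was 13.6%. Limma 3.58.1 and DESeq2 1.42.0 were alternatives. The steps were tested on simulated data. Near-identical copies were sought with blastn 2.17.0 among GENCODE M21 transcripts (identity of at least 90%, alignments of at least 60 bases, 200 in all, 50% of the shorter transcript), and exon lengths come from the same annotation. Promoter windows are RefSeq's on GRCm38.p6.

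Genes with values were Srsf4, the called genes, the 2 genes with the smallest p of each role, Hspa1a, Hspa1b, Hspb7, Dnajb1, Bag3, Hsf1, Cryab, Tcp1 and called partners; further genes of the roles were named after their values were seen. The gene set and all lists were chosen with earlier results of these data known.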

Additional observations from a re-analysis of the deposited data

How the results depend on the processing

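Among the named genes under the alternatives, 388 values kept direction and side of the threshold, 56 lost a call, 24 gained one and 14 changed sign. Of called genes this was Hspa8 alone, summed with Gm26825 and Gm15459 (log2 fold change 0.20, adjusted p = 0.229), which left 0 chaperone genes called lower. The others were called on neither side. They were, as log2 fold changes, Hsf1 -0.026, Cct3 -0.032, Bag3 -0.10, Cryab -0.061 and Tcp1 -0.090 with total counts alone, Bag3 -0.087 and Cryab -0.13 with voom, Bag3 -0.0099, Cryab -0.17 and Tcp1 -0.0020 without KO 1, Bag1 0.014 without KO 2, Hspb7 0.041 without KO 3 and Bag3 -0.018 without control 3. Over the single omissions Bag1 ran from -0.18 to 0.014, Hspb7 from -0.10 to 0.041, Bag3 from -0.018 to 0.12, Cryab from -0.17 to 0.24 and Tcp1 from -0.0020 to 0.094. Total counts alone gave 3 higher, 6 lower and 1163 genes in all. DESeq2 gave 3 lower and 1468 in all, voom with sample quality weights 18 higher, 9 lower and 3538 in all, and RLE factors, upper-quartile factors and limma-trend 2 lower each. An adjusted p of 0.01 left 1 higher. Leaving out 1 library gave 1 to 15 higher, 0 to 7 lower and 288 to 2896 genes in all, the highest counts each without KO 1 and the lowest each without control 1. The cause was not tested in any of these cases, and the merged counts of Hspa8 do not show how its reads were divided.

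The heart number as a replicate block gave 2 higher, 2 lower and 505 genes in all, with 2 calls shared with the fit without it. Same-numbered hearts correlated at -0.06, 0.15 and -0.26 in their deviations over 12686 genes, and not every heart correlated best with its own number. The deviations cancel out within each group of 3 hearts, so these values cannot show whether same-numbered hearts share more than a number.

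Genes with near-identical copies depend on how reads were shared, low genes such as Hspa1a rest on 80 to 172 counts a heart, and the library prefix cannot be told apart from the genotype. Copies were also found for Hspa9, Hsp90ab1, Hspa4l, Dnajb9, Dnajb14, Dnajc2, Dnajc17, Dnajc19, Dnajc25, Dnajc27, Dnajc30 and Cct3, so these counts are uncertain too.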
